A study of Mus musculus with 23 samples.

Results

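The noncoding RNA transcripts described here are those whose level differed at least by a factor of 2 between LPS-treated and untreated wt macrophages 120 min after LPS. They comprised 118 probes of 110 genes, among 1400 probes for noncoding RefSeq transcripts (accession beginning with NR_) and 55681 probes in all. A probe was taken when it was well above background on all 4 wt arrays in medium or on all 4 wt arrays with LPS, which held for 574 of the 1400, and when the group means differed by at least 1 on the log2 scale. Of the 118 probes, 35 were higher and 83 were lower after LPS.

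RNA came from bone marrow-derived macrophages (BMDM), which were grown from the femur of male C57BL/6 mice of 10 to 14 weeks over 9 days with 10 ng/ml M-CSF. The mice were wild-type (wt), deficient for the kinase MK2 (MK2-/-) or deficient for both MK2 and MK3 (MK2/3-/-) in the whole animal, and the cells were kept in medium or given 100 ng/ml LPS for 120 min. Each of the 6 groups had 4 single-dye Agilent arrays except for MK2-/- in medium with 3, 23 in all. MK2 and MK3 are kinases downstream of p38, and the study asked how they shape the response of macrophages to LPS.

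Long noncoding transcripts are mostly made by the same polymerase as messenger RNA, and LPS, acting through the receptor TLR4 and NF-kB, interferon regulatory factors and the MAP kinases, is known to change many of them together with the coding genes. Some act as RNA: Neat1 is the scaffold of the nuclear bodies called paraspeckles, and Malat1 is a nuclear RNA of the splicing speckles. Others are known for what they carry: microRNA host transcripts hold the hairpins of microRNAs, and small nucleolar RNA (snoRNA) host genes hold, in their introns, the guide RNAs for the modification of ribosomal RNA. Antisense and opposite-strand transcripts overlap or adjoin a coding gene, and transcribed pseudogenes are copies of coding genes without a product.

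By the RefSeq annotation of GRCm38.p6, 27 of the 35 higher probes belonged to long noncoding RNAs (lncRNA), 6 to pseudogenes, 1 to an antisense RNA (Emx2os) and 1 to another RNA (Slfn10-ps). The 83 lower probes comprised 53 of lncRNAs, 16 of pseudogenes, 6 of noncoding variants of genes that the annotation lists as coding and 8 without a match in the annotation, which are named by their accession. For 8 genes more than 1 probe met the rule.

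The sequences shown first are those of the mature microRNAs carried by 2 of these transcripts, one lower and one higher after LPS. F630028O10Rik, lower after LPS in wt BMDM, is annotated around Mir223, the gene of the myeloid microRNA miR-223, and Mir22hg, higher after LPS, around Mir22. Capitals mark the seed, bases 2 to 8, and positions refer to GRCm38.p6. The 4 seeds differed from each other.
mmu-miR-223-3p, chrX:96242884-96242905, plus strand: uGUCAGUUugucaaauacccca
mmu-miR-223-5p, chrX:96242842-96242864, plus strand: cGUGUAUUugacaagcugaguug
mmu-miR-22-3p, chr11:75463772-75463793, plus strand: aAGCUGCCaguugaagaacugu
mmu-miR-22-5p, chr11:75463734-75463755, plus strand: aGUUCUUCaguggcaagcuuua
The arrays read the host transcripts, not the mature microRNAs, so their levels are not known from these data.

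Promoter sequences from RefSeq (GRCm38.p6), each 300 bases around the start of the gene and mostly before it, are shown for 3 of the higher and 2 of the lower transcripts. Il1bos and 5033406O09Rik are described first below among the higher and the lower transcripts. The others carry a match to a motif of a factor family activated by LPS. Sequences run 5′ to 3′ on the strand of the gene, and capitals mark a motif match.
Il1bos promoter, chr2:129369652-129369951, plus strand: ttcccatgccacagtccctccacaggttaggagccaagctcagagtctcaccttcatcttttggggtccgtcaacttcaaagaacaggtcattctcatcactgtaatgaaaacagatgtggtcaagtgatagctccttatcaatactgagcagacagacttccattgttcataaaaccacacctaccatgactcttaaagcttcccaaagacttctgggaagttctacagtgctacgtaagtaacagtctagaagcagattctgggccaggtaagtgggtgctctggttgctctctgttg
F930015N05Rik promoter, chr11:64436625-64436924, minus strand: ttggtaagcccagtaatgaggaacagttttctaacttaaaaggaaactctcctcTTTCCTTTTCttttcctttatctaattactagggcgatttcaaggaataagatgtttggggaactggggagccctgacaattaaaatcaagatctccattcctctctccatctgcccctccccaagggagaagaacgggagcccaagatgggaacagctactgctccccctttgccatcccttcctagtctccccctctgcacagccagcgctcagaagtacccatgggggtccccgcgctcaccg
Morrbid promoter, chr2:128429302-128429601, minus strand: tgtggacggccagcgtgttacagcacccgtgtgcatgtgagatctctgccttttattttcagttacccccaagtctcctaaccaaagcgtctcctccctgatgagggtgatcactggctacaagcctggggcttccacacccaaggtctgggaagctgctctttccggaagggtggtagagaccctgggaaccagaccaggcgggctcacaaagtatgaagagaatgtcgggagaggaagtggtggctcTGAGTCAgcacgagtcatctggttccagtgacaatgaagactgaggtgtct
5033406O09Rik promoter, chr12:111944433-111944732, minus strand: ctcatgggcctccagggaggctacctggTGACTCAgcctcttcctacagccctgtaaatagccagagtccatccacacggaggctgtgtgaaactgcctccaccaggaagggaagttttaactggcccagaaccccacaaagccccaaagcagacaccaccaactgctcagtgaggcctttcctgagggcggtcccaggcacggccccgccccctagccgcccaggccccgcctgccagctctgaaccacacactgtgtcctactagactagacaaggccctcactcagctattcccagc
F630028O10Rik promoter, chrX:96239676-96239975, plus strand: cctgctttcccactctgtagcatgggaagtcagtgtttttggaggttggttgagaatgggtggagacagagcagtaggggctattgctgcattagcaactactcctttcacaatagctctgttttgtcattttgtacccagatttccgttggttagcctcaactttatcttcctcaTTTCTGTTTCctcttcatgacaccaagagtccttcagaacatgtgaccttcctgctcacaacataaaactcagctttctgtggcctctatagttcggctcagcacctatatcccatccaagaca
The capitals mark the interferon-stimulated response element (ISRE) in F930015N05Rik and F630028O10Rik, and the AP-1 motif (TGANTCA) in Morrbid and 5033406O09Rik. Among the genes with a promoter in the table, 22 of the higher and 49 of the lower ones, the former motif was found in 1 and 2 and the latter in 1 and 5, and they occurred in 3.44% and 7.81% of 32851 promoters. The NF-kB motif was found in 0 of both sets, compared with 0.411% of all promoters, and the cyclic AMP response element TGACGTCA in 0 and 1 (Gm16062), compared with 1.79%. Both strands were searched. A match or its absence describes these letters in this window only.

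As the transcripts were chosen on wt BMDM, their wt values are a description without a test. By the same rule without regard to accession, 4.41% of all 55681 probes were higher and 6.18% lower. The median change of the higher probes was 1.97 (1.01 to 5.69) and that of the lower ones -1.51 (-3.60 to -1.01) on the log2 scale, and the largest change in each direction rests on a group with no or 1 array well above background. With normexp background correction of the median spot signals and an added offset of 50, 20 higher and 21 lower probes met the threshold. The medians of the 35 and the 83 probes were then 1.05 and -0.70. Such an offset makes the log2 changes of dim probes smaller. The wt arrays in medium and with LPS did not overlap for 31 of the 35 and 62 of the 83. As these same arrays chose the probes, this count is no separate support for the changes. Levels are quantile-normalized log2 signals, of which values near 2 lie at the background. Nearest to the threshold were Pitpnm2os1 with 1.01 and Tug1 with 1.06 inside and Gm6936 with 0.99 and Ccl25 with 0.97 outside, and for the lower ones NR_002840 with -1.01 and Nlrp1c-ps with -1.01 inside and 4930432J09Rik with -0.99 and Gm10845 with -0.99 outside.

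MK2-/- and MK2/3-/- BMDM did not enter the choice, and their response to LPS was tested against their own medium arrays. In MK2-/- BMDM, 32 of the 35 probes higher in wt rose and 52 of the 83 lower in wt fell (limma, adjusted p under 0.05 over all probes). Of all probes, 6.32% rose and 7.87% fell in this comparison. Of the 30347 probes detected in wt BMDM, as these had to be, 3143 rose and 3989 fell. In MK2/3-/- BMDM, 33 rose and 59 fell, compared with 9.63% and 11.0% of all probes. Of the 30347 detected probes, 4688 rose and 5673 fell there. No transcript was called in the direction opposite to wt. The median changes were 2.29 and -1.52 in MK2-/- and 2.26 and -1.69 in MK2/3-/- BMDM, whereas the medians over the 30347 probes detected in wt BMDM were -0.06 and -0.09. Both knockouts shared 30 rising and 49 falling calls, 3 rising and 10 falling ones were called in MK2/3-/- alone and 2 and 3 in MK2-/- alone, and 21 lower transcripts were called in neither. Medium was always on the first and LPS on the second row of a slide, so that array row and treatment cannot be told apart.

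**Figure D1:**
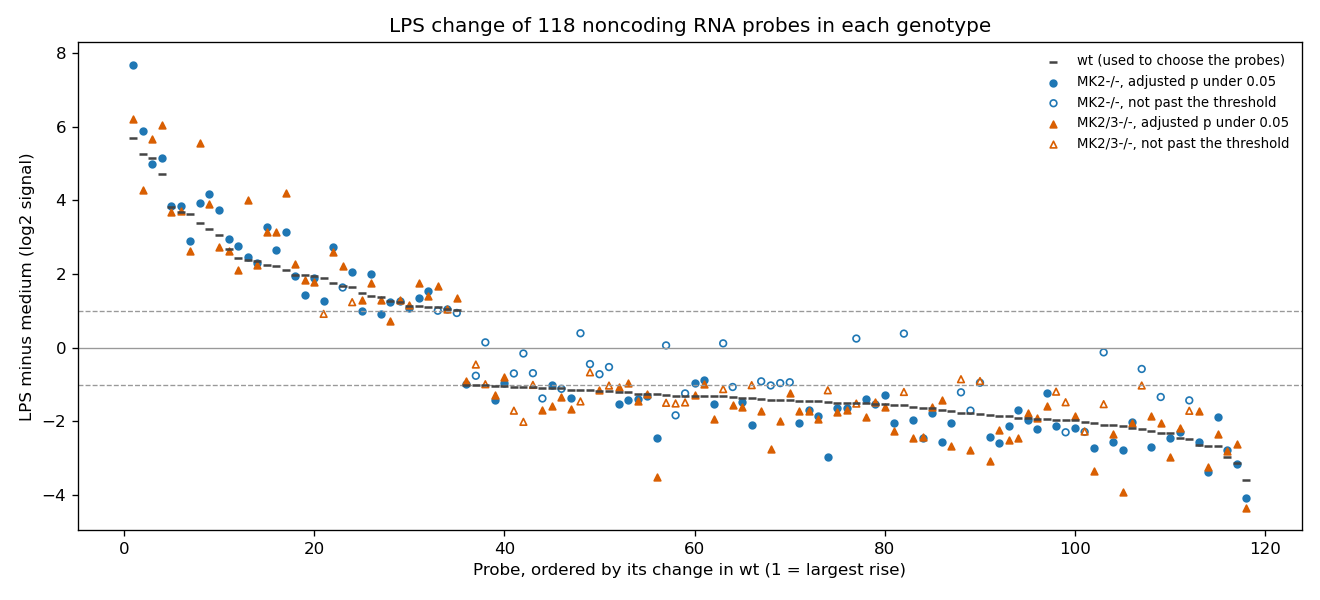
LPS change (log2, LPS minus medium) on the vertical axis of each of the 118 probes, ordered along the horizontal axis from the highest to the lowest change in wt BMDM. Dashes are wt, circles MK2-/- and triangles MK2/3-/-, filled where the adjusted p was under 0.05. All 35 probes higher in wt BMDM lay above 0 in both knockouts, and 6 of the 83 lower ones lay above 0 in MK2-/- BMDM.

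Among the higher transcripts, Il1bos is transcribed opposite to the interleukin-1β gene Il1b. As it was not well above background in wt medium, its change has no rank among them. Among the 21 higher probes well above background on all 8 wt arrays, AI504432 differed most (3.81). The signals of Il1bos were 1.59, 1.66, 1.68 and 2.40 in wt medium, none well above background, and 7.40, 7.93, 7.63 and 7.14 with LPS, at least 16.8-fold higher. They were 1.65, 1.74 and 1.76 in MK2-/- medium and 10.02, 9.65, 9.68 and 8.27 with LPS, and 3.66, 2.72, 1.69 and 1.67 in MK2/3-/- medium and 8.86, 8.79, 9.24 and 7.72 with LPS. Medium and LPS arrays did not overlap in any genotype. The rise was at least 57.6-fold in MK2-/- (log2 change 7.69, SE 0.46, adjusted p = 6.77e-10) and 6.22 on the log2 scale in MK2/3-/- BMDM (SE 0.42, adjusted p = 2.85e-09), where 1 of 4 medium arrays was well above background. Such lower bounds are given where no array of a group was well above background, and then compare with the lowest signal that was. The files hold no probe sequence, so which strand of the locus the probe reads is not known here.

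U90926, a lncRNA described in macrophages, was at 4.45, 2.64, 3.09 and 3.57 in wt medium and at 9.77, 9.96, 7.81 and 7.21 with LPS. In MK2-/- BMDM it was at 2.56, 3.24 and 1.74 in medium and at 8.79, 10.00, 8.38 and 6.38 with LPS, a rise of at least 27.3-fold (adjusted p = 4.90e-05). In MK2/3-/- BMDM it was at 1.80, 2.24, 3.45 and 2.93 in medium and at 7.0, 8.40, 7.01 and 5.11 with LPS, at least 10.2-fold higher (adjusted p = 0.000439). All LPS arrays lay above all medium arrays of their genotype, and the LPS arrays of the 3 genotypes overlapped. F930015N05Rik, with the response element shown above, was at 3.50, 3.38, 3.67 and 3.10 in wt medium and at 6.63, 7.93, 6.46 and 6.14 with LPS, at least 8.96-fold higher. Its signals with LPS were 7.33, 9.07, 7.91 and 7.09 in MK2-/- and 9.34, 9.38, 8.22 and 7.46 in MK2/3-/- BMDM, above all medium arrays of their genotype. The rise was 3.94 on the log2 scale in MK2-/- BMDM (SE 0.51, adjusted p = 1.71e-05), with 1 of 3 medium arrays well above background, and at least 32.2-fold in MK2/3-/- BMDM (adjusted p = 5.69e-08), with none. Wt and MK2/3-/- arrays still overlapped, as the highest wt array lay above the lowest of MK2/3-/-.

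4933432I03Rik rose by 4.99 on the log2 scale in MK2-/- and at least 46.2-fold in MK2/3-/- BMDM, where no medium array was well above background, and differed by 5.16 in wt. The pseudogene Gm18852 rose by 5.15 and 6.05, compared with 4.71 in wt, with 2 of 3 and 2 of 4 medium arrays well above background in the knockouts. AI504432 (3.85 and 3.69) and H2-Q5 (2.95 and 2.61), a transcribed pseudogene of the class Ib histocompatibility genes, were well above background on all arrays. Gm10791 rose by 2.90 and 2.63 and Gm9895 by 2.29 and 2.26, each with some medium arrays not well above background. AW011738 rose at least 6.70-fold in MK2-/-, with no medium array well above background, and by 3.90 on the log2 scale in MK2/3-/- BMDM with 1 of 4. D730005E14Rik rose by 2.47 in MK2-/- BMDM with 1 of 3 medium arrays well above background, and at least 10.5-fold in MK2/3-/- BMDM with none. Its other probe that met the rule, well above background on all arrays, rose by 1.44 and 1.83 (adjusted p = 0.0462 and 0.00452). All of these were called in both knockouts. Apart from this other probe of D730005E14Rik, the adjusted p lay between 6.59e-09 and 0.0099. For the former probe of D730005E14Rik the call in MK2-/- was lost without medium replicate 2 of that group (log2 change 1.81, adjusted p = 0.0879). 5 probes in all were not called in one of the knockouts: Gm4759, 1700110I01Rik and Pitpnm2os1 in MK2-/- (adjusted p = 0.129, 0.0825 and 0.209), and Phtf1os and Airn in MK2/3-/- BMDM (adjusted p = 0.0903 and 0.112).

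**Figure D2:**
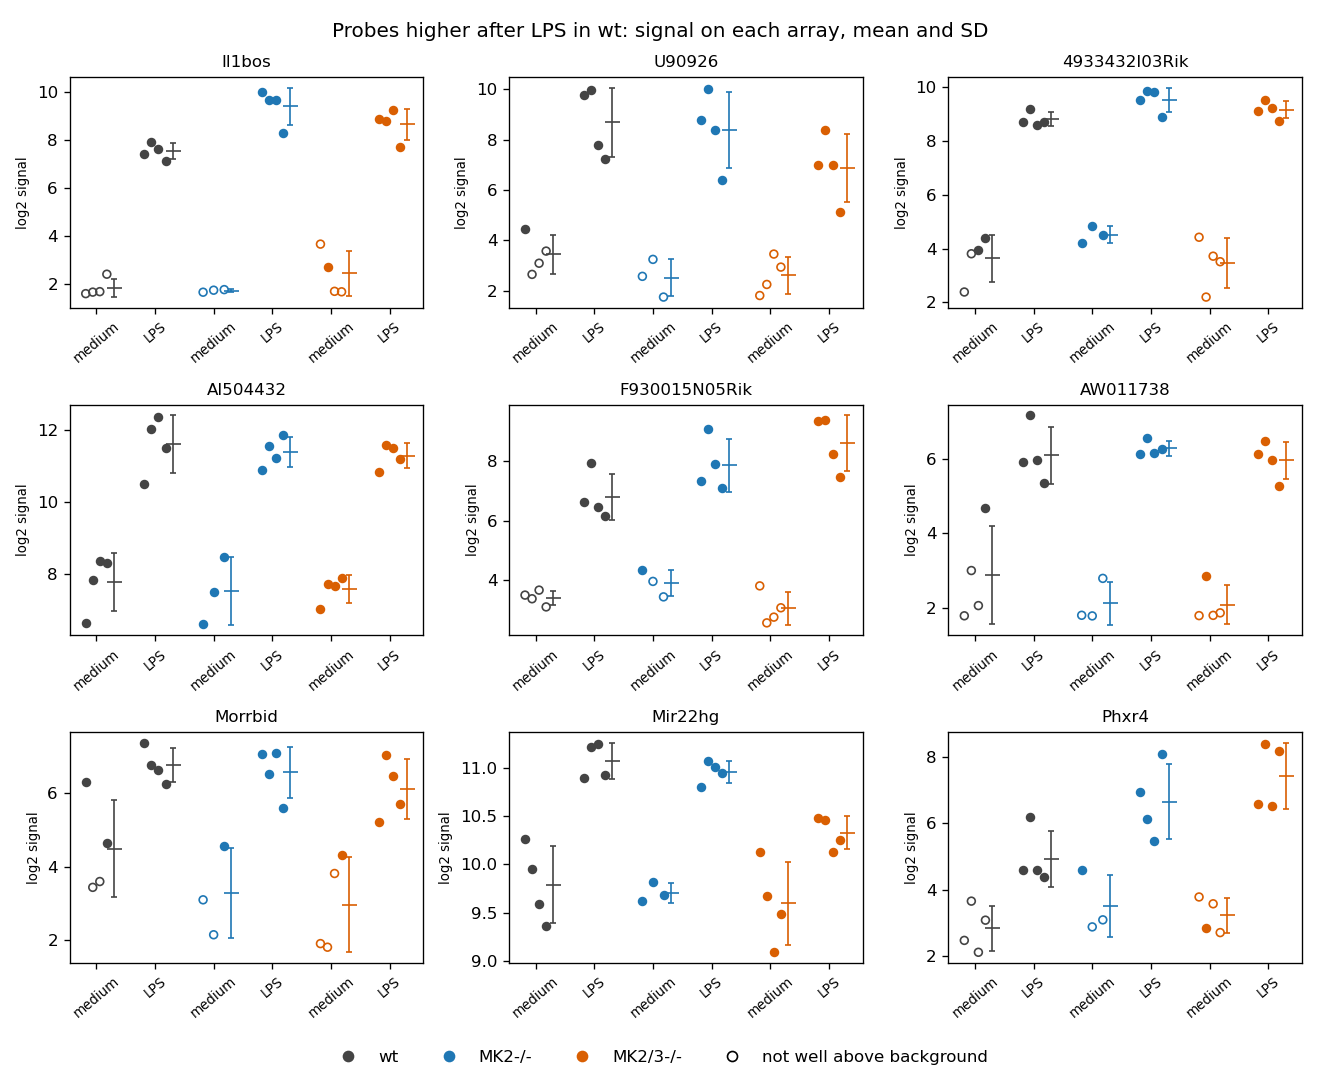
Quantile-normalized log2 signal on each array for transcripts higher after LPS in wt BMDM, by genotype and treatment. Points are arrays, bars the mean and SD of a group, and open points arrays not well above background. The medium arrays of Il1bos lay between 1.59 and 3.66 and its LPS arrays between 7.14 and 10.02.

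Morrbid, a lncRNA that is known to restrain its coding neighbour Bcl2l11, a gene of cell death, in myeloid cells, was at 6.29, 3.44, 3.60 and 4.63 in wt medium and at 7.35, 6.77, 6.61 and 6.24 with LPS, with an overlap through replicate 1 in medium. It rose by 3.28 in MK2-/- and 3.13 in MK2/3-/- BMDM (SE 0.73 and 0.68, adjusted p = 0.00375 and 0.00211), with 1 of 3 and 1 of 4 medium arrays well above background. Mir22hg was bright in every group: its signals in wt BMDM were 10.26, 9.95, 9.59 and 9.36 in medium and 10.90, 11.22, 11.25 and 10.93 with LPS. With LPS they were 10.80, 11.07, 11.01 and 10.95 in MK2-/- and 10.48, 10.45, 10.12 and 10.25 in MK2/3-/- BMDM, so that all MK2/3-/- arrays lay below those of wt. The rise was 1.25 in MK2-/- and 0.73 in MK2/3-/- (adjusted p = 0.000348 and 0.0115), the latter falling to 0.56 (adjusted p = 0.0529) without MK2/3-/- medium replicate 3. The difference in LPS response between the knockouts was not called for any transcript, as given below.

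Among the lower transcripts, 5033406O09Rik was at 6.82, 6.81, 6.37 and 6.60 in wt medium and 3.55, 1.69, 2.97 and 4.00 with LPS. It was at 7.52, 6.85 and 6.51 in MK2-/- medium and 4.48, 1.71, 3.60 and 1.75 with LPS, and at 7.42, 7.07, 6.74 and 7.0 in MK2/3-/- medium and 2.56, 1.69, 2.62 and 3.99 with LPS. No LPS array reached a medium array in any genotype. Of the 4 LPS arrays of each genotype 1 was well above background, so that its change has no rank among the lower transcripts. The log2 changes were -4.08 in MK2-/- (SE 0.62, adjusted p = 0.000106) and -4.35 with both kinases deleted (SE 0.58, adjusted p = 1.49e-05). Hmga2-ps1, a pseudogene, differed most among the 42 lower probes well above background on all 8 wt arrays, and changed by -3.13 in wt, by -3.16 without MK2 and by -2.61 without MK2 and MK3. B130006D01Rik was well above background on no LPS array of any genotype, and was at least 2.90-fold lower in wt, 1.61-fold in MK2-/- and 1.56-fold in MK2/3-/- BMDM. Its measured means went from 5.05 to 2.08 in wt, from 4.93 to 2.17 in MK2-/- and from 4.69 to 1.88 in MK2/3-/- BMDM. Such bounds depend on the lowest signal well above background on the LPS arrays of each genotype, so they do not rank the genotypes.

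F630028O10Rik, the transcript around Mir223, was at 5.73, 5.96, 5.04 and 4.12 in wt medium and at 2.03, 1.78, 2.78 and 3.62 with LPS, none of the latter well above background. It was at 5.83, 5.74 and 6.07 in MK2-/- medium and at 1.88, 1.80, 1.84 and 4.50 with LPS, and at 5.42, 5.46, 4.58 and 4.81 in MK2/3-/- medium and at 1.87, 1.80, 1.84 and 1.78 with LPS. The groups did not overlap in any genotype. The fall was at least 3.25-fold in wt, 2.67-fold in MK2-/- BMDM (adjusted p = 0.000264) and 2.02-fold in the absence of both kinases (adjusted p = 0.000126). The measured means went from 5.21 to 2.55 in wt, from 5.88 to 2.51 in MK2-/- and from 5.07 to 1.82 in MK2/3-/- BMDM. The order of these bounds is thus not an order of the falls.

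The paraspeckle RNA Neat1 was at 13.17, 14.92, 13.51 and 12.91 in wt medium and at 10.34, 11.57, 11.21 and 10.86 with LPS. The LPS arrays lay at 10.07, 11.19, 10.53 and 11.08 in MK2-/- and at 11.47, 12.96, 11.22 and 11.27 in MK2/3-/- BMDM. In wt and MK2-/- BMDM no LPS array reached a medium array, and in MK2/3-/- BMDM LPS replicate 2 did. The change was -2.63 in wt BMDM, -2.57 in MK2-/- (SE 0.53, adjusted p = 0.00205) and -1.73 in MK2/3-/- BMDM (SE 0.49, adjusted p = 0.0159). The call in MK2/3-/- was lost without medium replicate 2 (-1.43, adjusted p = 0.0634) or LPS replicate 3 (-1.55, adjusted p = 0.0514). Malat1, in wt BMDM at 9.05, 8.78, 8.44 and 8.60 in medium and 6.13, 6.11, 6.29 and 6.57 with LPS, fell by 2.27 in MK2-/- and 2.17 in MK2/3-/- BMDM (SE 0.23 and 0.22, adjusted p = 9.72e-07 and 4.34e-07).

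**Figure D3:**
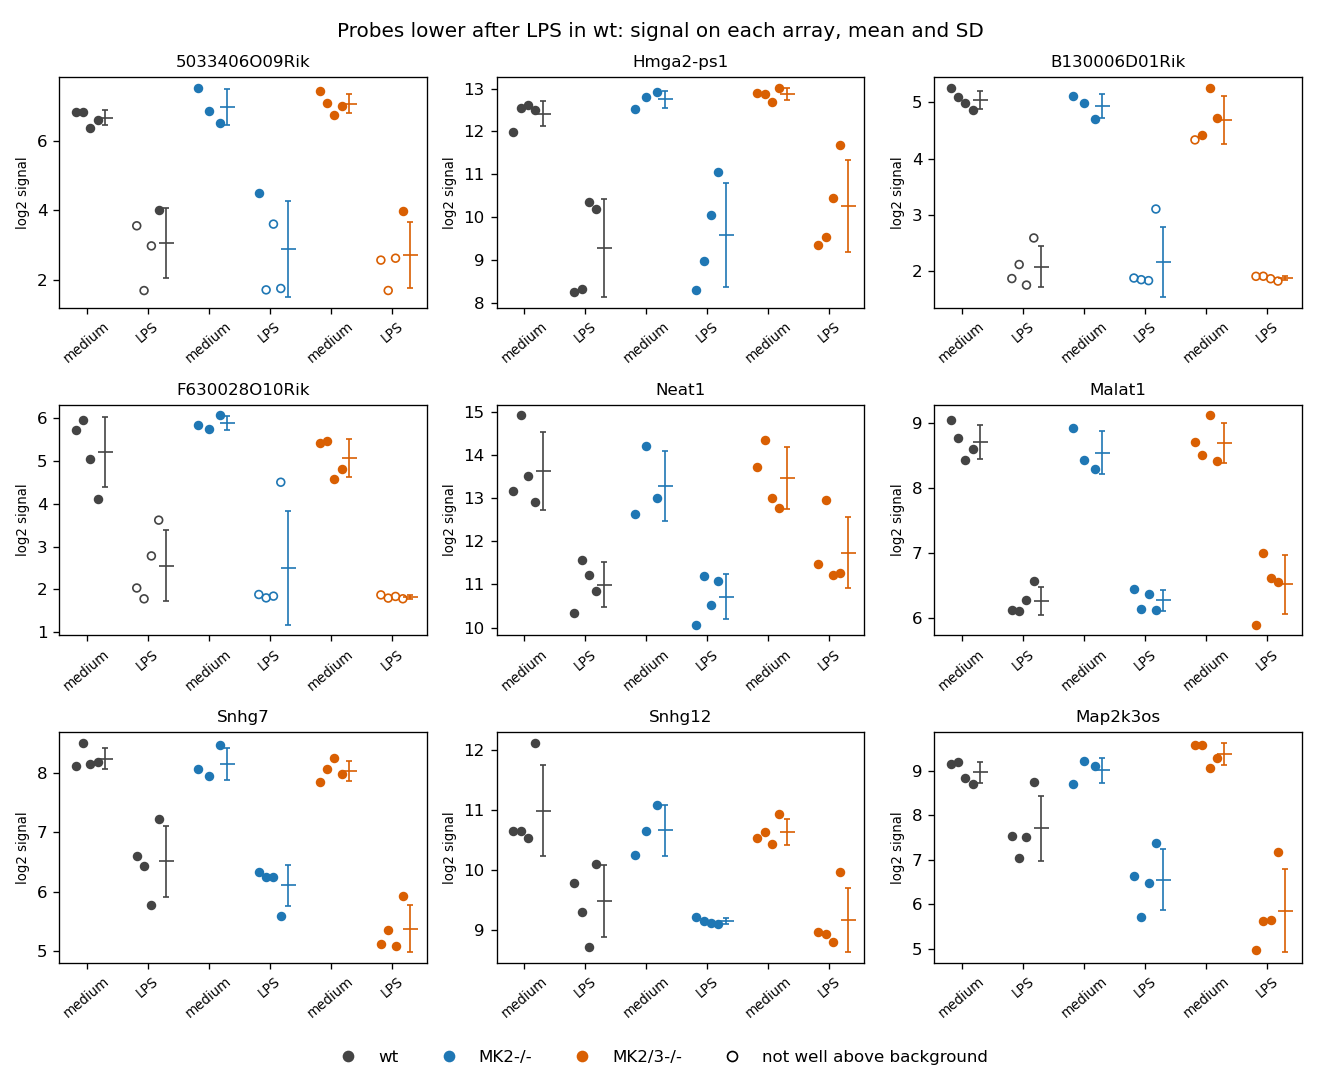
Quantile-normalized log2 signal on each array for transcripts lower after LPS in wt BMDM, by genotype and treatment. Points are arrays, bars the mean and SD of a group, and open points arrays not well above background. For F630028O10Rik no LPS array was well above background in any genotype.

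Map2k3os has Map2k3 as its nearest coding gene, which encodes MKK3, a kinase upstream of p38 and so of MK2. Its signals were 9.15, 9.20, 8.83 and 8.71 in wt medium and 7.55, 7.04, 7.50 and 8.75 with LPS. In MK2-/- BMDM they were 8.70, 9.23 and 9.10 in medium and 6.65, 5.71, 6.49 and 7.38 with LPS, and in MK2/3-/- BMDM 9.57, 9.59, 9.06 and 9.29 and then 4.97, 5.64, 5.66 and 7.18. Only in wt did a medium and an LPS array overlap, through LPS replicate 4, and the change was -1.26 there, compared with -2.45 for MK2-/- (adjusted p = 0.000587) and -3.52 for MK2/3-/- (adjusted p = 3.22e-06). Map2k3 itself changed by 0.32, 0.48 and 0.50, the last 2 called (adjusted p = 0.0154 and 0.00491).

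Of the 21 snoRNA host genes listed, 11 were detected in wt BMDM with 12 probes, of which 11 were lower and 1 higher with LPS, with a median change of -0.54. Snhg15 (-0.001) and the probes of Snhg16 (-0.02 and -0.11), counted as lower, hardly changed. The median change in wt over all 30347 detected probes was -0.08. The transcripts that met the threshold under a listed name were Snhg5, Snhg7 and Snhg12. Listed genes were looked up by gene name, so the 8 lower probes without a match in the annotation could not be counted here. 4 probes fell in MK2-/- and 5 in MK2/3-/- BMDM and none rose, with medians of -0.66 and -0.70. Among all 30347 detected probes, 3989 and 5673 fell. Snhg7, annotated around Snora17 and Snora43, was at 8.10, 8.50, 8.15 and 8.18 in wt medium and at 6.60, 6.44, 5.78 and 7.22 with LPS. It fell by 2.05 in MK2-/- (SE 0.27, adjusted p = 2.33e-05) and by 2.66 in MK2/3-/- BMDM (SE 0.25, adjusted p = 2.46e-07). Snhg12, which holds 4 snoRNAs, changed by -1.51, -1.52 (adjusted p = 0.00742) and -1.47 (adjusted p = 0.00372), and without MK2-/- medium replicate 3 the value in MK2-/- was -1.30 (adjusted p = 0.0513). Snhg5 was called in both knockouts (-1.40, adjusted p = 0.0427, and -1.45, adjusted p = 0.017), but not in MK2/3-/- when it was left without LPS replicate 3 (-1.14, adjusted p = 0.0706) or medium replicate 4 (-1.18, adjusted p = 0.0693), and the call in MK2-/- was lost (-1.26 to -1.47, adjusted p = 0.0506 to 0.145) without MK2-/- medium replicate 1 or 3, any one of the 4 MK2-/- LPS arrays, wt medium replicate 3, MK2/3-/- medium replicate 2 or 3, or MK2/3-/- LPS replicate 1. 2410006H16Rik, which is annotated around Snord49a, Snord49b and Snord65 and was not on the list, fell by 2.17 and 1.85 (adjusted p = 0.000131 and 0.000221).

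Of 26 lncRNAs described in innate immune cells, again looked up by gene name, 11 genes were detected in wt BMDM with 14 probes. The 7 that met the rule were U90926, Morrbid, Mir22hg and Tug1 among the higher and Malat1, Neat1 and F630028O10Rik among the lower ones. All 7 were called in both knockouts, in the direction of wt. Of the other probes of the list, Mir17hg, the host of the miR-17 cluster, was also called in MK2/3-/- BMDM (1.28), whereas it was 0.69 in wt. 3 housekeeping noncoding RNAs, Terc, Rmrp and Rnu12, were detected, and none was called in either knockout, with log2 changes in wt of 0.00, -0.13 and -0.18.

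For 23 of 31 genes with a higher transcript and 55 of 71 with a lower one the nearest coding gene in RefSeq was detected in wt BMDM. Its bounds overlapped those of the noncoding gene for 14 of the 31 and 24 of the 71, detected or not. The same held for 142 of 368 detected noncoding genes that did not meet the rule. Which strand the probes of such pairs read is not known here. Next to the higher transcripts, 7 neighbours were higher by at least 1 in wt BMDM (30.4%) and 1 was lower (4.35%). Next to the lower ones, 6 were higher (10.9%) and 9 lower (16.4%). Next to the detected noncoding genes that did not meet the rule, these shares were 16.1% and 9.89% of 273. In MK2-/- BMDM 10 neighbours of higher transcripts rose and 1 fell, and 6 neighbours of lower ones rose and 13 fell. In MK2/3-/- BMDM these numbers were 9 and 2, and 7 and 18. Of the 273 neighbours of transcripts that did not meet the rule, 46 rose and 43 fell in MK2-/- and 62 rose and 52 fell in MK2/3-/- BMDM.

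Among the pairs, the neighbour of Il1bos, Il1b, which encodes the cytokine interleukin-1β, changed by 8.63, 7.20 and 7.04 in wt, MK2-/- and MK2/3-/- cells, and the neighbour of 1700025C18Rik, the co-stimulatory receptor gene Cd40, by 7.27, 7.68 and 7.48. Bcl2l11, next to Morrbid, changed by 3.63, 3.55 and 3.55, and the potassium channel gene Kcna3, next to AI504432, by 3.65, 3.86 and 3.59. In other pairs the signs differed: 4933405E24Rik changed by -1.80 in wt, while its neighbour Csf2, the gene of the growth factor GM-CSF, was well above background on no wt medium array and at least 72.9-fold higher with LPS, and Slc2a4rg-ps changed by -1.37 next to Zbtb46 with 5.49. U90926 had a neighbour, Uso1, with 0.33. The correlation of the changes in wt BMDM over 78 pairs was 0.42, as a description across genes, where both values of a pair come from the same arrays.

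**Figure D4:**
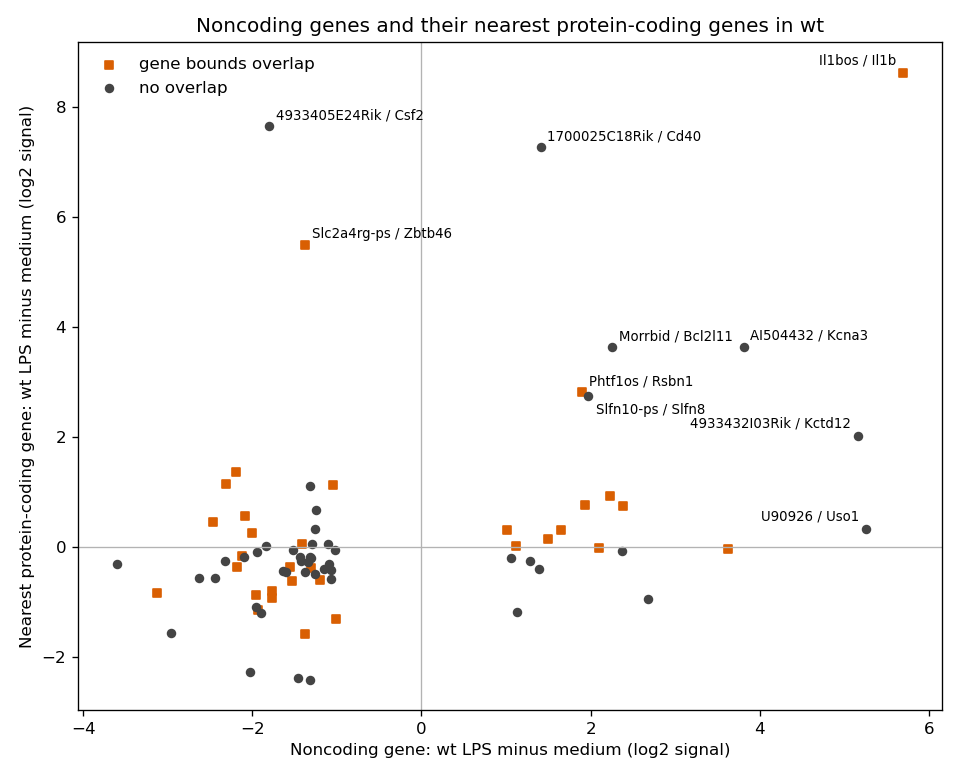
LPS change in wt BMDM (log2) of the nearest coding gene on the vertical axis against that of the noncoding transcript on the horizontal axis, each point one of 78 genes with a detected neighbour. Squares are pairs whose gene bounds overlap, and circles are the others. Il1bos with Il1b lies at the upper right, and 4933405E24Rik with Csf2 at the upper left.

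MK2/3-/- and MK2-/- BMDM were then compared with each other. After LPS, 0 of the 118 transcripts were called by limma (0.149% of all probes were), in medium 0 (0.0449%), and 0 for a difference in the LPS response (0% of all probes). At an unadjusted p under 0.05 limma gave 2 higher and 7 lower transcripts in MK2/3-/- after LPS, 0 and 2 in medium, and 2 and 2 for the LPS response. Of all probes, 8.07%, 4.14% and 3.06% had such a p, so that the transcripts were close to or below this background. Of the adjusted p-values after LPS, the smallest was 0.256 (Gm10658), in medium 0.271 (Gm10046). The methods' t-test without adjustment gave 1 higher and 5 lower after LPS and 1 and 3 in medium. 53 of the 83 lower transcripts and 17 of the 35 higher ones changed more in MK2/3-/- than in MK2-/- BMDM, which was not tested. For 70 of the 118 transcripts, the response in MK2/3-/- minus that in MK2-/- BMDM had the sign of the wt change. The same held for 17677 of the 30347 probes detected in wt BMDM, a share close to that of the transcripts.

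Differences of the knockouts from wt BMDM are given as a description, since wt values chose the transcripts and each genotype was on a slide of its own, so that genotype and slide cannot be told apart. After LPS, 4 of the 118 transcripts (3.39%) had all MK2-/- arrays above all wt arrays and 1 (0.847%) had all below, compared with 2.33% and 1.31% of all probes. For MK2/3-/- BMDM 1 was above and 4 were below, compared with 2.94% and 2.82% of all probes. These shares of the transcripts were close to or below those of all probes. In MK2-/- BMDM those above were Il1bos, by 1.88 (9.40 ± 0.77 with LPS, SD, n = 4, against 7.52 ± 0.34, n = 4), BC065397, at least 2.43-fold, with 3 of 4 MK2-/- and no wt arrays well above background, 1600023N17Rik by 0.91, with 3 of 4 arrays in each group, and A530088E08Rik, not above background in either group. In MK2/3-/- BMDM, Phxr4 was above by 2.48 (7.42 ± 1.00 against 4.94 ± 0.84, n = 4 each), and 1500011B03Rik, Mir22hg and Gm9731 were below by -1.09, -0.74 and -0.70.

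The accession NR_002840 was below wt in both knockouts with 1 of its 2 probes that met the rule, by -2.02 in MK2-/- and -2.20 in MK2/3-/- BMDM. This probe (A_66_P134809) was at 12.82, 12.57, 11.93 and 13.29 in wt medium, at 10.51, 10.75 and 10.60 in MK2-/- medium, and at 10.57, 10.23, 10.18 and 10.48 in MK2/3-/- medium, so that it differed from wt before LPS, too. The other probe that met the rule (A_55_P2178378) was at 7.87, 8.24, 7.39 and 7.53 in wt, 7.17, 7.76 and 7.98 in MK2-/- and 7.99, 8.21, 7.74 and 7.83 in MK2/3-/- medium, with overlapping groups. The third probe, which did not meet the rule, differed from wt by -1.0 in MK2-/- and -1.26 in MK2/3-/- medium. The stromal genes Col1a1 and Col1a2 were also lower in the knockouts in medium, at 9.61 and 11.9 in MK2-/- and 10.2 and 11.8 in MK2/3-/- against 12.3 and 14.2 in wt BMDM, and their part in these differences was not tested.

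**Figure D5:**
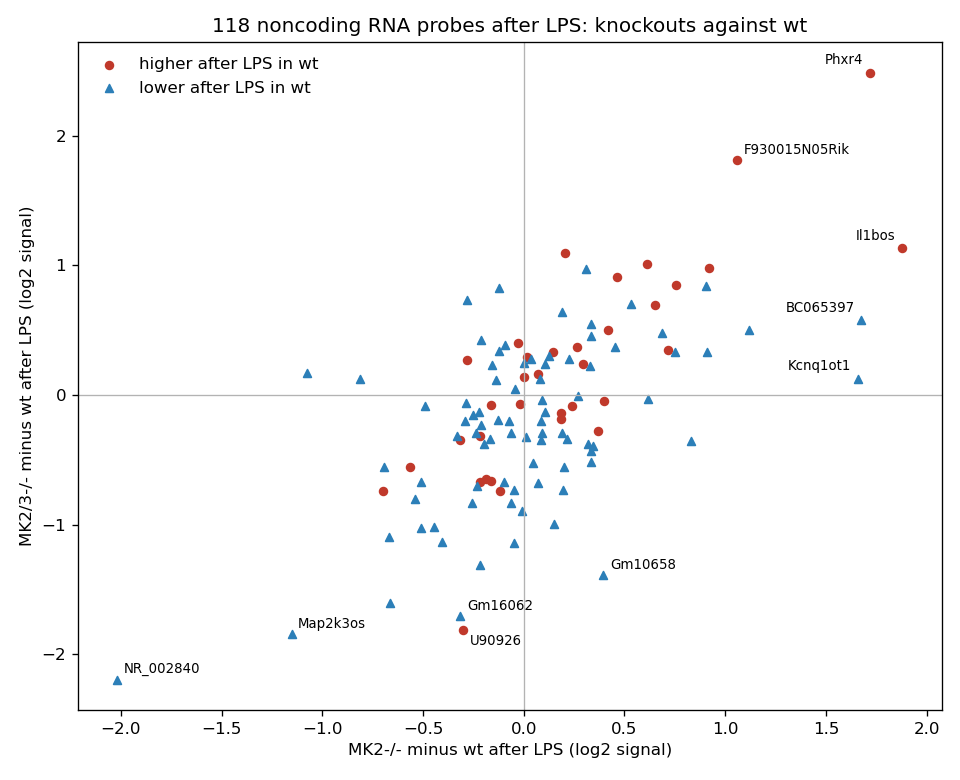
Difference from wt BMDM after LPS (log2) of the 118 transcripts, for MK2-/- BMDM on the horizontal and MK2/3-/- BMDM on the vertical axis, each point a probe. Il1bos lies farthest to the right (1.88), Phxr4 highest (2.48) and NR_002840 at the lower left (-2.02 and -2.20). Both axes share the wt LPS arrays.

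Several probes of one gene did not always move together. Another probe for the same gene was present for 24 genes, and for 6 of them detected probes had opposite signs in wt BMDM. For 9330133O14Rik, the probe that met the rule changed by -1.09 in wt and -1.01 in MK2-/- BMDM (limma adjusted p = 0.0407). Its other probe changed by 0.96 and 1.22 (adjusted p = 0.0275). For Airn, counted as higher with 1.65 in wt, a brighter probe (9.78 against 4.59 in wt medium) changed by -0.37. For Prmt6, a gene of a protein methyltransferase, both probes of the noncoding variant were lower (-1.86 and -1.95 in wt), whereas the probe of the coding variant changed by 1.19 in wt, 0.95 with MK2 deleted (adjusted p = 0.00231) and 0.55 with MK2 and MK3 deleted (adjusted p = 0.0398). For Tug1, the probe of one accession rose by 1.06 in each knockout (adjusted p = 0.000193 and 5.98e-05), while both probes of the other accession were between -0.23 and 0.11 in wt and not called. For Smarca5-ps the probe that met the rule changed by -1.51, and 2 further probes by 0.43 and 0.52 in wt. The further probes were brighter, at 11.0 and 11.1 in wt medium against 6.56. The former was called higher in MK2/3-/- BMDM (0.55, adjusted p = 0.0127) but not in MK2-/- BMDM (0.48, adjusted p = 0.0547). The latter was called higher in both (0.81 in MK2-/-, adjusted p = 0.000611, and 0.74 in MK2/3-/-, adjusted p = 0.000505). For 1500011B03Rik the probe that met the rule changed by -1.84 in wt, and a probe of another accession by 0.05, the latter differing from wt after LPS by 0.44 in MK2/3-/- BMDM. Rreb1, which encodes a zinc finger protein, was lower with all of its 3 probes, the noncoding variant at least 1.46-fold, with no wt LPS array well above background, and the coding variants by -1.59 and -2.13 in wt BMDM.

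Mapkapk2, which encodes MK2, was lower in both knockouts, at 12.2 in wt medium and 8.91 and 8.72 in MK2-/- and MK2/3-/- medium, and Mapkapk3, which encodes MK3, was at 13.5, 13.7 and 11.9. Whether these probes lie in the deleted parts is not known from the files. All 7 macrophage markers measured were well above background on every array, as were 2 of 5 of T cells, 3 of 5 of neutrophils, 2 of 4 of dendritic cells, 2 of 4 of stromal cells and none of mast and erythroid cells. Of B cells, Cd22 was well above background on all arrays. Cd3d of T cells was above background on no array. In bulk RNA a lower number of cells of a type and less RNA per cell cannot be told apart. Between 47.5% and 69.1% of all probes were well above background on an array. The highest share was on MK2/3-/- medium replicate 2, and the other arrays of its group had 47.5% to 55.9%. For Il1bos and AW011738, this was the 1 MK2/3-/- medium array well above background. For 2 arrays, MK2-/- LPS replicate 1 and MK2/3-/- medium replicate 2, the scanner software held no fit of the multiplicative gradient.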

How the data were processed

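The 23 samples were grouped by genotype and treatment as the labels give them. The intensity of each spot, which the authors deposited as processed signal of Agilent Feature Extraction 11.0.1.1, is per the file headers linear and background-subtracted. The authors also deposited log2 values, quantile normalized and centred per probe, which served as an alternative. Here, spots with a non-uniformity or population outlier flag were excluded, the signals were log2 transformed, averaged per probe and quantile normalized across the 23 arrays. The authors' detection mark was used for signals well above background. Genes were named through the accession in RefSeq GRCm38.p6, which matched 1325 of 1400 probes.

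All 55681 probes entered a single model with 6 groups (R 4.3.3, limma 3.58.1), with two-sided tests and Benjamini-Hochberg adjustment at 0.05 over all probes. The number of arrays limits the precision. The labels give culture letters and ages, by which medium and LPS arrays were paired, but do not state that every culture is a separate animal, so p-values measure the spread between these samples. Deviations from the group means of the 11 culture pairs correlated with 0.03 to 0.45 over 55426 probes, with 9 above 0.1, and with 0.32 to 0.73 over the 22927 probes well above background on all arrays, with 11 above 0.1. The transcripts, lists and tests were chosen with earlier results of these data known. Genes are named by size of change, lists, non-overlap with wt, nearness to the threshold and coding neighbour, while Map2k3os, 2410006H16Rik, the promoters shown and the probe disagreements were chosen after their values were seen. The limma step was tested on simulated data. A marker gene of another cell type is not reported here. The alternatives tried are given in the closing section.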

Additional observations from a re-analysis of the deposited data

Results flagged for a closer look

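In 12 of 160 groups of 4 arrays, 1 array lay apart from the others beyond the critical value of Dixon's test, which chance gives for about 1 in 20 groups. The array at the low end was Snhg7 in MK2-/- LPS replicate 4 with a log2 signal of 5.58 (others 6.24 to 6.34). All other such arrays were at the high end. Replicate 4 of MK2-/- LPS was also high for B130006D01Rik with 3.11 (others 1.83 to 1.88), F630028O10Rik with 4.50 (1.80 to 1.88) and Gm4532 with 6.54 (1.88 to 2.62). For this probe of Gm4532 the change in MK2-/- BMDM was -1.43 (limma adjusted p = 0.264), and passed the threshold without replicate 4 (adjusted p = 0.00066), when no LPS array was well above background. The other probe of Gm4532 that met the rule fell at least 3.46-fold with all arrays (adjusted p = 0.000244). In wt BMDM, Il1bos was at 2.40 in medium replicate 4 (1.59 to 1.68), Snhg12 at 12.13 in medium replicate 4 (10.54 to 10.66), 4933432I03Rik at 9.18 in LPS replicate 2 (8.60 to 8.70) and Phxr4 at 6.19 in LPS replicate 2 (4.38 to 4.59). In MK2/3-/- BMDM, AW011738 was at 2.86 in medium replicate 2 (1.78 to 1.86), Neat1 at 12.96 in LPS replicate 2 (11.22 to 11.47), Snhg12 at 9.96 in LPS replicate 4 (8.79 to 8.97) and A530088E08Rik at 2.59 in LPS replicate 3 (1.78 to 1.86).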

How the results depend on the processing

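With normexp background correction of the median spot signals and an added offset of 50, 20 higher and 21 lower probes met the threshold in wt BMDM. The median changes of the 35 and the 83 probes were then 1.05 and -0.70 in wt, 1.09 and -0.70 in MK2-/- and 1.13 and -0.78 in MK2/3-/- BMDM. After LPS, MK2-/- arrays were then all above wt arrays for 1 transcript and MK2/3-/- arrays for 2. Scaled to the 75th percentile, which moved the median of all probes in wt BMDM from -0.01 to 0.13 and in MK2-/- BMDM to 0.20, these numbers were 2 and 2, and MK2-/- arrays were all below for 2. The methods' t-test with adjustment called 20 rising and 32 falling transcripts in MK2-/- BMDM, and without adjustment 1 and 5 between the knockouts after LPS and 1 and 3 in medium. With the culture as a replicate block, 33 and 56 were called in MK2-/- and 35 and 62 in MK2/3-/- BMDM, 0 between the knockouts, and none of 96 values of single transcripts changed its call. Leaving out 1 array at a time gave 34 to 46 higher and 70 to 100 lower transcripts in wt, 27 to 32 and 41 to 54 calls in MK2-/-, 31 to 34 and 51 to 62 in MK2/3-/- BMDM and 0 between the knockouts. No called value of a single transcript reversed. Of 2208 such comparisons for single transcripts, 45 lost and 7 gained a call, most often Rnf227 in MK2-/- BMDM (-1.88, adjusted p = 0.0466), and NR_002840 also lost calls. Both arrays without a gradient fit were left out as a setting chosen after seeing the data, in which, of the 96 values, 4 lost a call (Rnf227, Snhg5 and NR_002840 in MK2-/-, Neat1 in MK2/3-/- BMDM) and BC065397 in MK2/3-/- BMDM gained one (-1.98, adjusted p = 0.0384). Genotype and slide cannot be told apart, so a slide term could not be fitted.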
